A study of Mus musculus with 6 samples.

Results

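The genes described here mark leukocytes, macrophages and the macrophages that live in tissue. They were taken as a list of 35 symbols, and all 35 were found among the 16800 genes of the TPM tables (TPM is a transcript level scaled for gene length and library total) and joined by gene identifier to the raw counts of 45777 genes. The tissue was the tibialis anterior (TA), a fast muscle of the lower leg, from old male C57BL/6J mice. A group of 3 mice received BML-260, the compound that the study uses as an inhibitor of the phosphatase DUSP22, at 5 mg/kg by intraperitoneal injection every 24 h for 4 weeks. The control group of 3 mice received vehicle alone, which was 5% DMSO with 5% Tween 80. The sample labels give an age of 24 months for both groups, whereas the methods state 24 to 26 months and the results 27 months. The sample labels name no transgene or deletion for either group. The study's reagent list, however, gives its C57BL/6J mice a supplier identifier that includes an allele of Gpr37. How this bears on the mice used here is not stated. Every comparison is within old muscle.

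Macrophages are phagocytes that depend on signals through the receptor of colony-stimulating factor 1 and on the transcription factor PU.1. In skeletal muscle they occupy the connective tissue between the fibers, clear dying fibers after damage, and support the precursor cells that rebuild them. Monocytes recruited from blood join the resident cells after injury, and the resident cells are often recognized by scavenger receptors such as Mrc1, Cd163 and Lyve1.

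Library totals were between 39522890 and 56998875 counts. Muscle fiber genes held 82932 to 118015 TPM in each library, so the tissue label held. Vehicle 3 had the lowest of these sums, and its summed normalized counts of the fiber genes were 3230240, compared with 5041790 to 6078740 in the other 5 libraries. T cell genes were at or near 0: Cd3d, Cd3e, Cd3g, Cd4, Cd8a, Lck and Nkg7 did not pass the filter on low counts. Vehicle 3 stood apart from the other libraries: its correlation of log2 CPM across genes with vehicles 1 and 2 was 0.947 and 0.948, whereas vehicles 1 and 2 correlated at 0.975 with each other and the BML-260 libraries at 0.978 to 0.982. Most counts of calls, medians and fold changes are therefore also given without vehicle 3. In bulk muscle, fewer macrophages and less of a transcript per macrophage cannot be told apart.

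With BML-260, 26 of the 35 myeloid genes fell by the edgeR quasi-likelihood test, at the threshold of the study's volcano plot (at least 1.3-fold, unadjusted p under 0.05). The same threshold was reached downward by 4.86% of the 16188 genes tested. None rose (0 of 35, where 0.896% of tested genes did). The study itself used DESeq2 with shrunken log2 fold changes, so its calls can differ from these edgeR calls. The log2 fold change of BML-260 over vehicle was negative for 34 of the 35, with a median of -1.28, and the median over every tested gene was -0.00393. After Benjamini-Hochberg adjustment over all tested genes, edgeR left 0 of the 35 below 0.05, beside 26 at an unadjusted p under 0.05. The share of all tested genes that passed the adjusted edgeR threshold was also 0%. By DESeq2, Laptm5, Csf1r, Adgre1, Fcgr2b and C1qb had an adjusted p under 0.05, which makes 5 of the 35, where 0.557% of the genes with a DESeq2 value were lower at that threshold.

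Normalized counts (counts divided by the DESeq2 size factors) put all 3 BML-260 libraries below all 3 vehicle libraries for 26 myeloid genes. Such a separation was found for 6.7% of tested genes. Since vehicle 3 was the highest of the 6 libraries for all 35 genes, the same 26 genes were separated when it was left out, beside 9.3% of genes. Without vehicle 3, edgeR called 20 of the 35 genes lower, where 2.92% of genes were, and the median log2 fold change was -0.64. Those 20 were all among the 26, and the calls of Cd53, Ms4a7, Cd14, Ncf1, Cd163 and F13a1 were lost. In the heatmap by library, the excess of vehicle 3 and the smaller distance between the other vehicles and BML-260 are seen side by side.

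**Figure D1:**
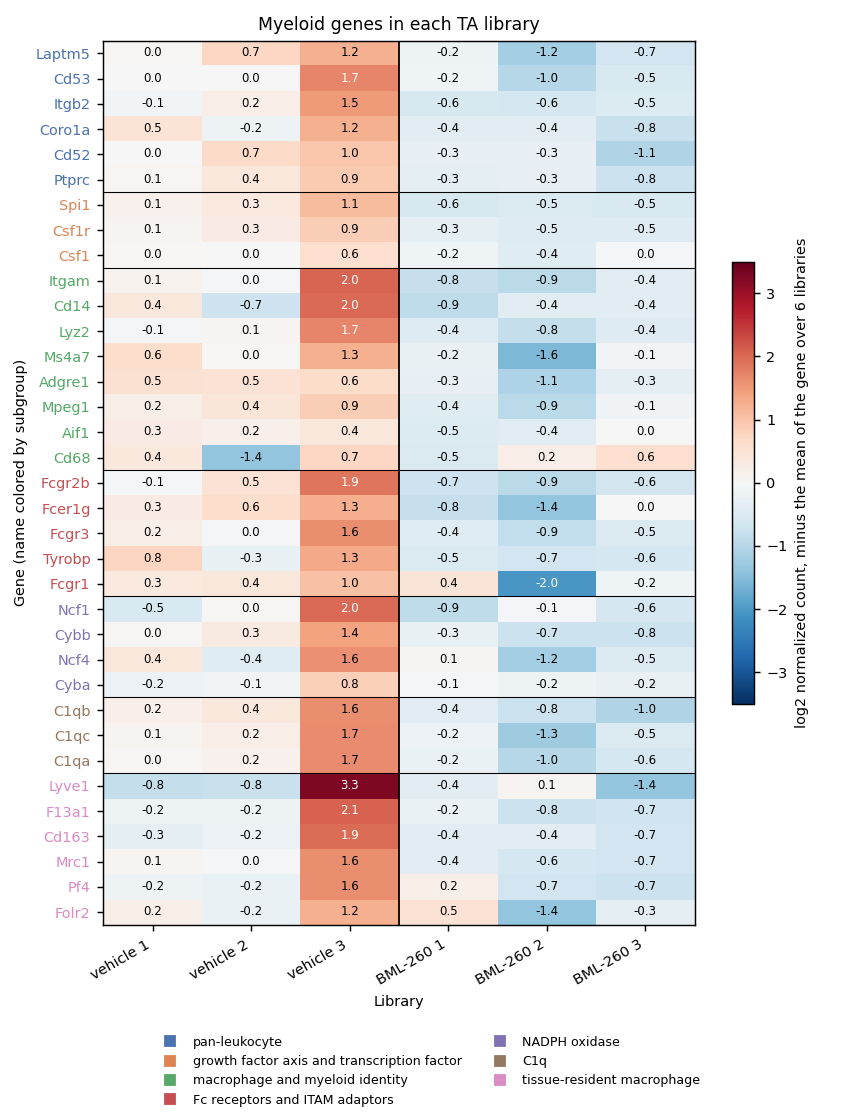
Normalized count of each myeloid gene (rows, names colored by subgroup) in each TA library (columns), as the log2 value minus the mean of the gene over the 6 libraries. Vehicle 3 has the highest value of its row for all 35 genes, and the BML-260 columns are below every vehicle column for 26 of them.

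In normalized counts, vehicle 3 exceeded the mean of vehicles 1 and 2 by a factor of 1.08 for Adgre1 to 16.7 for Lyve1, with a median of 2.37, and by at least 2 for 20 of the 35 genes. The lowest library was BML-260 2 for 20 genes, BML-260 3 for 10 genes, BML-260 1 for Spi1, Aif1, Cd14 and Ncf1, and vehicle 2 for Cd68. Summed over the 35 genes, the TPM was 234, 229 and 940 in vehicles 1, 2 and 3 and 164, 143 and 168 in BML-260 1, 2 and 3. The summed normalized counts, in the same order, were 11210, 11702 and 32668 with vehicle and 8628, 6885 and 7765 with BML-260. Vehicles 1 and 2 thus lay close together and above the 3 BML-260 libraries, which were close to each other as well. As a share of all counts, the 35 genes took 0.0246%, 0.0231% and 0.0837% in the vehicle libraries and 0.0175%, 0.0144% and 0.0161% in the BML-260 libraries.

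Levels between genes were compared on the TPM scale. Lyz2, which encodes the lysozyme of myeloid cells, was the most abundant, at 74.0, 78.8 and 354 TPM with vehicle and 52.4, 45 and 58.9 TPM with BML-260. No other gene of the list reached the level of Lyz2 in any library. With BML-260, C1qa (8.72 ± 1.79 TPM, SD, n = 3), Pf4 (8.19 ± 2.65), C1qc (7.93 ± 2.32), Cyba (7.63 ± 0.254) and Cd68 (7.42 ± 3.20) followed, and these neighbors differed by less than their spread. Fcgr1 was the lowest in both groups, at 0.489 ± 0.249 TPM with vehicle and 0.218 ± 0.136 TPM with BML-260, and its raw counts went down to 5 in BML-260 2. With vehicle 3 among them, the vehicle SD was nearly as large as the mean for genes such as C1qa (28.7 ± 25.8 TPM). The SD of TPM was smaller with BML-260 than with vehicle for all 35 genes, as the plot of TPM by gene shows.

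**Figure D2:**
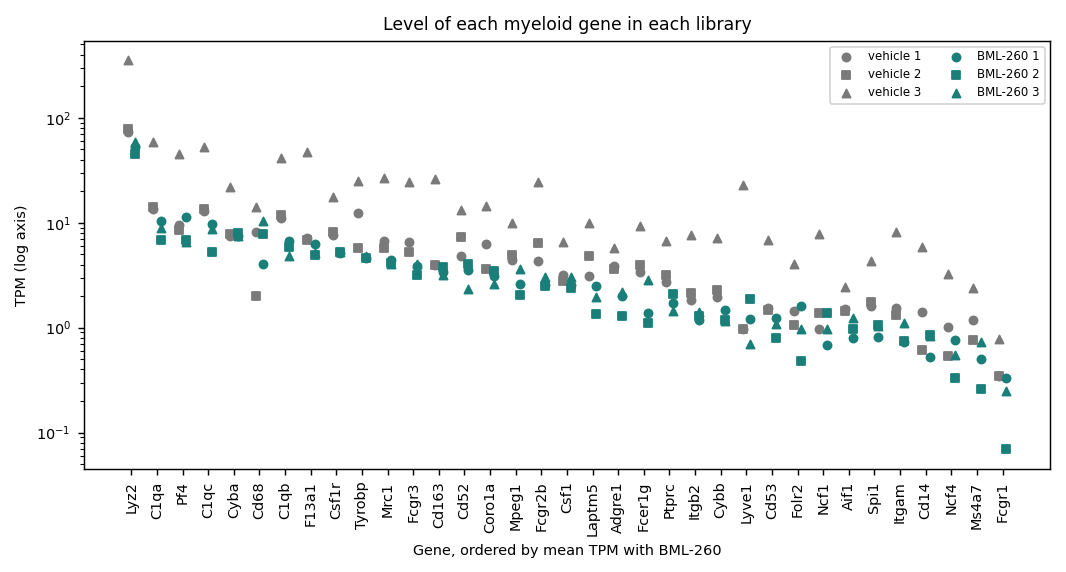
TPM of each myeloid gene on a log axis, ordered by the mean with BML-260, with 1 point per library (gray, vehicle; teal, BML-260; circle, square and triangle for replicates 1, 2 and 3). Lyz2 is the highest and Fcgr1 the lowest gene, and the gray triangle of vehicle 3 is the top point of every gene.

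The growth factor axis consists of Csf1, the ligand that macrophages need to survive, its receptor Csf1r, and Spi1, which encodes PU.1. Normalized counts of Csf1r were 833, 939 and 1393 with vehicle and 618, 560 and 565 with BML-260. Every BML-260 library was below every vehicle library, and the BML-260 libraries were close to each other. The log2 fold change was -0.86 (SE 0.20, edgeR adjusted p = 0.598, DESeq2 adjusted p = 0.0467), and it was -0.61 (SE 0.14) without vehicle 3. Normalized counts of Spi1 were 68.6, 78.8 and 135 with vehicle and 42.3, 44.0 and 42.8 with BML-260, a fall of 2.20-fold that kept its call without vehicle 3, at a log2 fold change of -0.78. The ligand did not pass the threshold: Csf1 was at 354, 343 and 522 normalized counts with vehicle and 310, 260 and 338 with BML-260. These Csf1 values did not overlap, but their log2 fold change was -0.43 (SE 0.21) and -0.21 (SE 0.18) without vehicle 3. In TPM, Csf1r exceeded Csf1 in every library, 2.37, 2.93 and 2.67 times with vehicle and 2.02, 2.21 and 1.72 times with BML-260, so the ratio was lower in each BML-260 library than in each vehicle library.

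PU.1 binds purine-rich sites that contain the hexamer GAGGAA, and many myeloid promoters are known to carry such sites, so the start regions of the genes were searched for it. The RefSeq promoter table of GRCm38.p6 held 31 windows for 25 of the 35 genes, each from 250 bases before to 50 bases after a transcription start. The hexamer, on either strand, was found in 17 of the 31 windows (54.8%) and in 28.3% of all 32851 windows of the same length. Counted by gene, it was found for 15 of 25 (60%) and for 31.3% of 27025 genes. The longer form GAGGAAGT, which contains the hexamer, was in 4 of the 31 windows, those of Cd53, C1qc, F13a1 and Pf4, and in 3.20% of all windows. The search was chosen after values had been seen, and a match describes the letters only. Shown here are the 100 bases before a listed transcription start of a gene from each of 5 subgroups. The gene is the called one with the smallest p in its subgroup whose stretch holds the hexamer. For Laptm5 and Fcgr3 that start lies inside the gene, which begins at 130912890 for Laptm5 and ends at 171065915 for Fcgr3. All are from GRCm38.p6, written from 5′ to 3′ on the strand of the gene, with the hexamer in capitals (TTCCTC is GAGGAA on the other strand).
Laptm5, chr4:130913216-130913315, plus strand: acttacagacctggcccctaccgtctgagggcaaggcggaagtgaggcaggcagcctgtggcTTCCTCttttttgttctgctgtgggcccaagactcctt
Itgam, chr7:128062540-128062639, plus strand: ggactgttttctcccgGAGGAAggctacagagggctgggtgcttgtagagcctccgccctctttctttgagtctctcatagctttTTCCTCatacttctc
Fcgr3, chr1:171059404-171059503, minus strand: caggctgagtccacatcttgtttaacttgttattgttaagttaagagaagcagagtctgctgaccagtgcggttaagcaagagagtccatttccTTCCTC
C1qb, chr4:136886201-136886300, minus strand: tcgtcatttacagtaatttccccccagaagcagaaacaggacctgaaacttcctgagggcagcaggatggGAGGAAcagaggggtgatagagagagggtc
Mrc1, chr2:14229314-14229413, plus strand: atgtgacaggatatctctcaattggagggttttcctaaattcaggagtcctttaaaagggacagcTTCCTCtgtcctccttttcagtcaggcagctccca
Itgam has 2 matches in its stretch and each of the others has 1. All 5 genes were lower in every BML-260 library than in every vehicle library, as the following paragraphs give in full.

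The leukocyte-wide genes fell as a group, with 6 of 6 at the threshold and a median log2 fold change of -1.21. Ptprc encodes the receptor phosphatase CD45, which all white blood cells carry. Normalized counts of Ptprc were 400, 497 and 708 with vehicle and 301, 309 and 224 with BML-260, without overlap. Its log2 fold change was -0.95 (SE 0.24, edgeR adjusted p = 0.631) and -0.69 (SE 0.19) without vehicle 3. Laptm5 encodes a lysosomal membrane protein of blood cells, and the bases before a start inside this gene are printed above. It had 215, 347 and 495 normalized counts with vehicle and 186, 91.0 and 132 with BML-260. The vehicle libraries were spread over more than the BML-260 ones, yet none of them came down to the BML-260 range, and the log2 fold change was -1.37 (SE 0.35), or -1.04 without vehicle 3. Coro1a, an actin-binding protein of leukocytes, was 2.21-fold lower, and its log2 fold change of -1.14 became -0.70 without vehicle 3. Cd52, a small surface glycoprotein, was 2.14-fold lower, and its log2 fold change of -1.10 became -0.87. Itgb2, the β chain shared by leukocyte integrins, was 2.41-fold lower, and its log2 fold change of -1.27 became -0.64. The tetraspanin gene Cd53 was at 121, 122 and 397 normalized counts with vehicle and 109, 61.0 and 84.3 with BML-260. Vehicles 1 and 2 were here close to BML-260 1, and the log2 fold change of Cd53 went from -1.33 to -0.52, no longer past the threshold, when vehicle 3 was left out. The other 5 kept their call, and the median of the 6 was -0.70 without vehicle 3.

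Among the 8 genes of macrophage and myeloid identity, 6 fell, with a median log2 fold change of -1.16. Without vehicle 3, 4 were called and the median was -0.66. Adgre1 encodes the adhesion receptor F4/80, the classical surface marker of mouse macrophages. Normalized counts of Adgre1 were 353, 349 and 379 with vehicle and 200, 116 and 194 with BML-260. On this scale the 3 vehicle libraries were nearly equal and every BML-260 library was well below them. Of the 35 genes this was the one whose normalized counts vehicle 3 raised least. In TPM, vehicle 3 was further above the others, as Adgre1 was at 3.88, 3.63 and 5.71 with vehicle and 2.01, 1.29 and 2.19 with BML-260. Its log2 fold change was -1.08 (SE 0.23) with all libraries and -1.05 (SE 0.24) without vehicle 3, and its adjusted p was 0.585 with edgeR, the lowest of the 35, and 0.0163 with DESeq2. Mpeg1, which encodes the pore-forming protein perforin-2, was lower as well, with 542, 630 and 865 normalized counts with vehicle and 353, 246 and 430 with BML-260. Its log2 fold change was -0.99 (SE 0.25), or -0.78 without vehicle 3.

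Lyz2 had 2212, 2473 and 7651 normalized counts with vehicle and 1722, 1310 and 1719 with BML-260. The groups did not overlap, but vehicle 3 was far above the rest, and the log2 fold change of -1.37 (SE 0.44) became -0.57 (SE 0.15) without it, still past the threshold. Itgam, the integrin chain CD11b of monocytes, macrophages and neutrophils, had 206, 184 and 782 normalized counts with vehicle and 109, 98.0 and 145 with BML-260. Its log2 fold change was -1.74 (SE 0.54) and -0.74 (SE 0.24) without vehicle 3. The groups of Itgam were separated also by vehicles 1 and 2 alone. Ms4a7, a membrane protein of macrophages, and Cd14, the coreceptor for bacterial lipopolysaccharide, were low and passed only with vehicle 3. Without it, the log2 fold change of Ms4a7 went from -1.23 to -0.87 and that of Cd14 from -1.51 to -0.49. Cd14 was at 66.7, 30.5 and 201 normalized counts with vehicle and 27.7, 39.0 and 39.1 with BML-260, so vehicle 2 lay within the BML-260 range.

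The identity genes that did not pass were Aif1 and Cd68. Aif1, the calcium-binding protein IBA1, had 43.8, 40.7 and 47.1 normalized counts with vehicle and 25.9, 28 and 35.4 with BML-260. Its groups did not overlap, and the log2 fold change of -0.57 (SE 0.34) hardly moved without vehicle 3 (-0.52, SE 0.40). Cd68, a glycoprotein of lysosomes, had 254, 75.0 and 323 normalized counts with vehicle and 137, 229 and 292 with BML-260. The groups overlapped over nearly their whole range, and the log2 fold change was 0.00 (SE 0.49), the only one of the 35 that was not negative. Its sign changed with the normalization and with the library left out, from -0.40 without vehicle 2 to 0.39 without vehicle 3.

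Fc receptors bind the constant part of antibodies, and the activating ones signal through adaptors that carry an ITAM, a short tyrosine motif. Of the 5 genes of this kind 4 fell, with a median log2 fold change of -1.39. The same count was called without vehicle 3, at a median of -0.95. Normalized counts of Fcgr2b, the inhibitory receptor for IgG, were 179, 268 and 700 with vehicle and 115, 99.0 and 121 with BML-260. The BML-260 libraries were close together and below every vehicle library. The log2 fold change of Fcgr2b was -1.78 (SE 0.46, edgeR adjusted p = 0.631, DESeq2 adjusted p = 0.0183), and -1.0 (SE 0.24) without vehicle 3. Fcgr3, an activating receptor, had 253, 213 and 679 normalized counts with vehicle and 162, 120 and 154 with BML-260, a log2 fold change of -1.39 (SE 0.42), or -0.69 without vehicle 3. The related gene Fcgr4 held 131 counts over the 6 libraries and Fcgr3 1774.

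The adaptor Fcer1g had 62.9, 78.8 and 125 normalized counts with vehicle and 29.4, 20 and 52.5 with BML-260, and without vehicle 3 its log2 fold change of -1.07 (SE 0.42) was the lowest of the 35. Tyrobp, the adaptor DAP12, had 200, 99.1 and 297 normalized counts with vehicle and 83.8, 74.0 and 77.0 with BML-260, a fall of 2.55-fold (log2 fold change -1.35, or -0.95 without vehicle 3). Both adaptors kept their call and their separation without vehicle 3. Fcgr1, the high-affinity receptor for IgG, had 25.7, 26.7 and 41.1 normalized counts with vehicle and 27.7, 5.00 and 18.3 with BML-260. BML-260 1 was above vehicles 1 and 2, and no difference in Fcgr1 was detectable at this depth (log2 fold change -0.87, SE 0.59).

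The NADPH oxidase of phagocytes makes superoxide through a membrane pair, encoded by Cybb (gp91phox) and Cyba (p22phox), and cytosolic subunits that include the products of Ncf1 (p47phox) and Ncf4 (p40phox). Cybb and Ncf1 fell, and Cyba and Ncf4 did not pass. The median log2 fold change of the 4 was -1.23, and without vehicle 3 it was -0.37 with 1 gene called. Normalized counts of Cybb were 266, 320 and 694 with vehicle and 218, 155 and 154 with BML-260, with a log2 fold change of -1.28 (SE 0.36), or -0.74 (SE 0.22) without vehicle 3. This was the only oxidase gene of the 4 whose groups did not overlap. Normalized counts of Cyba were 161, 174 and 334 with vehicle and 177, 166 and 158 with BML-260. Vehicles 1 and 2 were within the BML-260 range, and the log2 fold change of Cyba was -0.42 (SE 0.29), or -0.01 (SE 0.20) without vehicle 3. The TPM ratio of Cybb to Cyba was 0.262, 0.289 and 0.330 with vehicle and 0.196, 0.149 and 0.155 with BML-260, lower in each BML-260 library than in each vehicle library. Ncf1 had 76.3, 113 and 435 normalized counts with vehicle and 59.6, 105 and 73.3 with BML-260. Its call rested on vehicle 3, since the log2 fold change went from -1.40 (SE 0.61) to -0.26 (SE 0.32) without that library. Ncf4 had a log2 fold change of -1.19 (SE 0.57), or -0.47 without vehicle 3, and its groups overlapped.

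C1q is the recognition molecule of the classical complement pathway, built from 3 chains, and tissue macrophages are a main source of it. The 3 chain genes lie next to each other on chromosome 4 of GRCm38.p6, between positions 136880126 (the start of C1qb) and 136898844 (the end of C1qa). All 3 fell, the median of their log2 fold changes was -1.44, and all 3 kept the call without vehicle 3, at a median of -0.76. Normalized counts of C1qb were 346, 391 and 939 with vehicle and 232, 180 and 147 with BML-260. The groups were apart, and the log2 fold change was -1.58 (SE 0.38, edgeR adjusted p = 0.623), or -0.98 (SE 0.21) without vehicle 3. C1qb also had the lowest DESeq2 adjusted p of the 35, 0.0138. C1qa had 417, 454 and 1294 normalized counts with vehicle and 348, 203 and 269 with BML-260, and C1qc had 397, 433 and 1168 with vehicle and 322, 156 and 260 with BML-260. The chain genes thus had the same order of the vehicle libraries, and C1qa and C1qc the same order of the BML-260 libraries. On the TPM scale C1qa stood to C1qb at 1.23, 1.18 and 1.41 with vehicle and at 1.53, 1.15 and 1.87 with BML-260, ratios that overlapped between the groups.

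Among the subgroups of the 35 genes, vehicle 3 weighed most on the 6 listed genes of tissue-resident macrophages. Of the 6 genes 3 fell, with a median log2 fold change of -1.33, but without vehicle 3 the median was -0.22 and Mrc1 alone kept its call. The median excess of vehicle 3 over vehicles 1 and 2 was 4.07-fold for this subgroup, compared with 1.57-fold to 2.81-fold for the medians of the other 6 subgroups. Mrc1, the mannose receptor CD206, had 999, 914 and 2887 normalized counts with vehicle and 735, 610 and 590 with BML-260. Its groups did not overlap, and the log2 fold change was -1.31 (SE 0.41), or -0.57 (SE 0.14) without vehicle 3.

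Cd163, the scavenger receptor for hemoglobin bound to haptoglobin, had 494, 529 and 2351 normalized counts with vehicle and 464, 465 and 385 with BML-260. The separation between the groups was narrow apart from vehicle 3, and the log2 fold change went from -1.36 (SE 0.55) to -0.23 (SE 0.15) without it. F13a1, the A chain of coagulation factor XIII, had 786, 784 and 3711 normalized counts with vehicle and 764, 529 and 556 with BML-260, and its log2 fold change of -1.51 (SE 0.57) became -0.35 (SE 0.17). Lyve1, a hyaluronan receptor of resident macrophages and of lymphatic endothelium, had 71.5, 75.0 and 1226 normalized counts with vehicle and 98.5, 136 and 50.1 with BML-260. Without vehicle 3 its log2 fold change turned from -2.27 (SE 1.03) to 0.37 (SE 0.37). Neither value of Lyve1 passed the threshold. Folr2, a folate receptor, and Pf4, a chemokine of platelets and macrophages, overlapped between the groups as well, with log2 fold changes of -0.76 (SE 0.55) and -1.01 (SE 0.52). Without vehicle 3 these were -0.22 (SE 0.51) for Folr2 and -0.13 (SE 0.30) for Pf4.

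**Figure D3:**
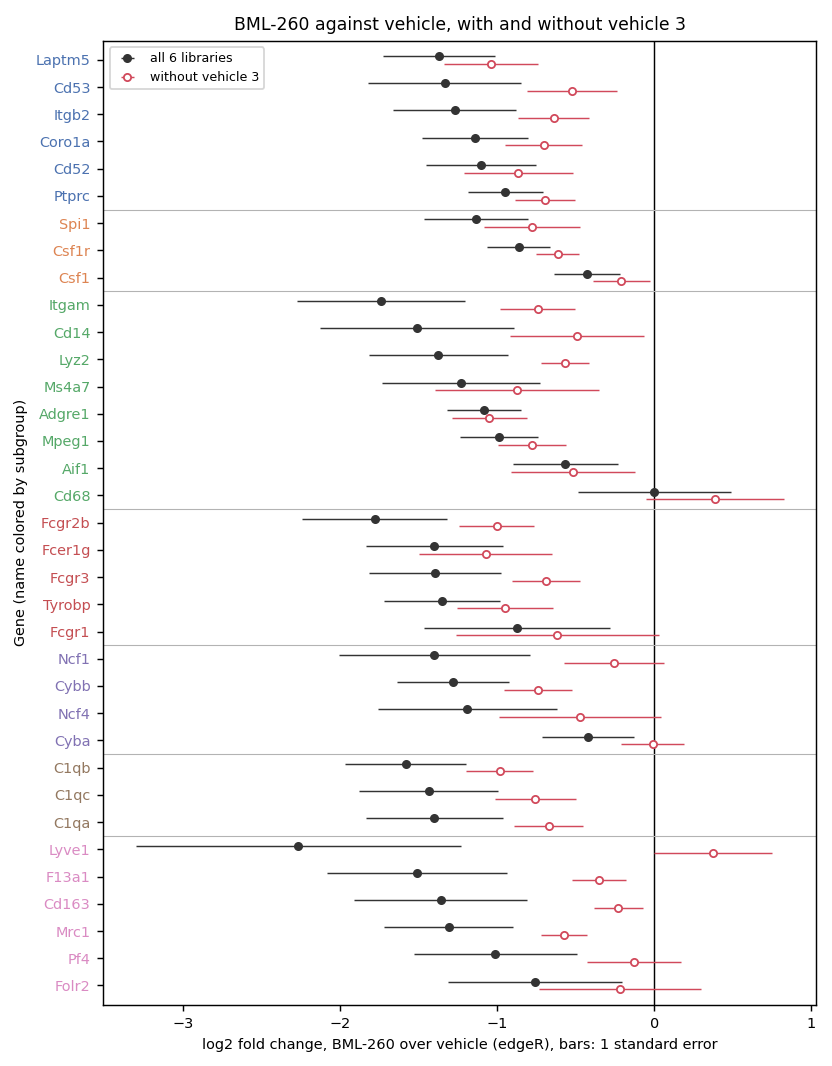
Log2 fold change of BML-260 over vehicle (edgeR) for each myeloid gene, with all 6 libraries (filled) and without vehicle 3 (open), bars showing 1 standard error and gene names colored by subgroup. Leaving out vehicle 3 moves Adgre1 from -1.08 to -1.05 and Lyve1 from -2.27 to 0.37.

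The resident genes were also set against Adgre1 in TPM, as a ratio within each library. For F13a1 the ratio was 1.85, 1.88 and 8.2 with vehicle and 3.15, 3.82 and 2.37 with BML-260. For Cd163 it was 1.01, 1.10 and 4.58 with vehicle and 1.67, 2.92 and 1.44 with BML-260. In these ratios the BML-260 libraries lay between vehicles 1 and 2 on the low side and vehicle 3 on the high side, so the groups were not ordered. The ratio of Lyz2 to Adgre1 had the same arrangement, at 19.1, 21.7 and 62.0 with vehicle and 26, 34.8 and 26.9 with BML-260. The plot of the distances from vehicles 1 and 2 shows both directions at once for every gene.

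**Figure D4:**
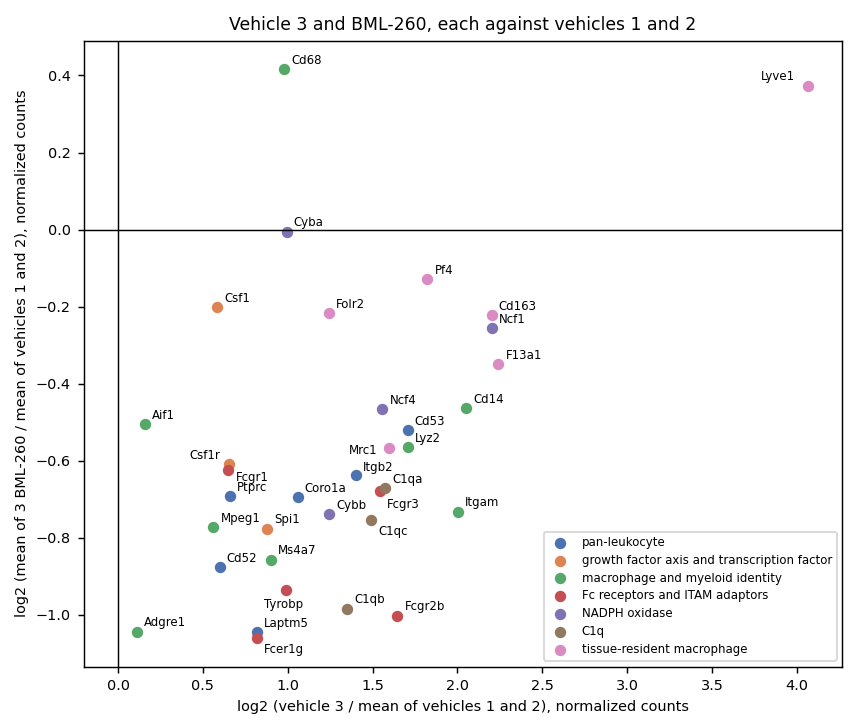
For each myeloid gene, vehicle 3 (horizontal) and the mean of the 3 BML-260 libraries (vertical), each over the mean of vehicles 1 and 2, as log2 ratios of normalized counts colored by subgroup. All 35 genes lie right of 0; Lyve1 and Cd68 lie above 0, and the resident genes other than Mrc1 lie closer to 0 on the vertical axis than most other genes.

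Read counting can touch a few of these genes. The lncRNA Gm52877 overlaps Cd163 and held 1975 counts over the 6 libraries beside 5393 for Cd163, and Gm10602 overlaps Folr2 and held 274 beside 324. The strand setting of the counting is not given in the sources used here, so reads of these overlapping genes may have been divided. Lyz1, a close relative of Lyz2, held 1216 counts beside 19204 for Lyz2.

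Other genes of the same pathways were counted from fixed lists. Among 14 myeloid regulators and growth factor receptors, 13 were tested, 6 fell and 0 rose, with a median log2 fold change of -0.33. Without vehicle 3, 4 were called lower at the same rounded median. Runx1, a transcription factor of blood cell development that denervated muscle fibers express as well, had 656, 2051 and 1543 normalized counts with vehicle and 257, 192 and 270 with BML-260. Its log2 fold change was -2.57 (SE 0.39, edgeR adjusted p = 0.553), or -2.50 without vehicle 3. Csf2rb, the β chain of the receptors for GM-CSF and IL-3, had 270, 154 and 491 normalized counts with vehicle and 66.5, 82.0 and 75.8 with BML-260, and its log2 fold change was -2.03 (SE 0.39), or -1.51 without vehicle 3. Both genes were lower in each BML-260 library than in each vehicle library. The cytokine gene Csf2 was not tested.

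Of the 13 genes that carry Fc receptor and ITAM signals inside the cell, 7 fell and 13 had a negative log2 fold change, with a median of -0.91. Without vehicle 3, 4 were called and the median was -0.55. The Src-family kinase gene Fgr had 42.9, 31.8 and 72.6 normalized counts with vehicle and 13.8, 17 and 13.4 with BML-260. Its log2 fold change was -1.73 (SE 0.43), or -1.34 without vehicle 3. From a separate list of 4 other NADPH oxidase genes, 2 fell and the median log2 fold change was -0.54, whereas without vehicle 3 there was 1 call and a median of -0.27. Rac2, the small GTPase of leukocyte oxidase, had 57.2, 102 and 194 normalized counts with vehicle and 38.9, 23 and 36.7 with BML-260, and its log2 fold change was -1.84 (SE 0.47), or -1.27 without vehicle 3. Fgr and Rac2 were lower in each BML-260 library than in each vehicle library.

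Of 9 monocyte genes 8 were tested and 5 fell, with a median of -1.31, whereas without vehicle 3 there were 2 calls and a median of -0.93. Plac8 and Spn had the smallest p of these, with log2 fold changes of -1.93 and -1.83. Without vehicle 3 these became -1.07 and -1.09, and Spn lost its call. Of 9 genes of lipid-associated and repair macrophages 8 were tested and 3 fell, with a median of -1.18, and without vehicle 3 there was 1 call and a median of -0.34. The β-glucan receptor gene Clec7a, at 110, 116 and 94.3 normalized counts with vehicle and 62.2, 33.0 and 50.1 with BML-260, was not raised in vehicle 3 and had a log2 fold change of -1.13 (SE 0.31), or -1.22 without vehicle 3. Lgals3, encoding galectin-3, was in contrast at 384, 389 and 1282 normalized counts with vehicle and 348, 202 and 331 with BML-260, and its log2 fold change of -1.22 became -0.40 without vehicle 3, where it lost its call. Of 12 other resident macrophage genes 11 were tested and 2 fell, with a median of -0.50. Without vehicle 3 there were 2 calls and a median of -0.18. Vehicle 3 was the highest library for 7 of the 11, a smaller part than in the resident genes above. Those that fell with all libraries were the lectin genes Clec10a (log2 fold change -1.47, SE 0.48) and Mgl2 (-0.58, SE 0.25). Without vehicle 3, Clec10a was at -0.70, Mgl2, at -0.45, lost its call, and Cbr2 gained one. The dendritic cell list had 4 of 6 genes tested, and 0 passed in either direction.

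Markers of other cells that moved with the libraries stand beside these results. Of 11 neutrophil genes 6 were tested and all 6 fell, with a median log2 fold change of -4.00, whereas without vehicle 3 there were 4 calls and a median of -3.01. Their summed normalized counts, over all 11 genes, were 2459, 426 and 10782 with vehicle and 157, 128 and 235 with BML-260. Ly6g and Camp were at 0 in every library but vehicle 3. S100a8 and S100a9, the subunits of calprotectin, had log2 fold changes of -5.09 and -4.72, or -3.49 and -3.45 without vehicle 3. Ptprc, Itgb2, Itgam, Fcgr3, Cybb and other genes of the list are expressed by neutrophils too, and the part of neutrophils in their values was not tested. Of 6 erythroid genes, which mark blood in the tissue, 4 fell with a median of -1.08, and without vehicle 3 there were 2 calls and a median of -0.38. The list had summed normalized counts of 33931, 38791 and 110840 with vehicle and 31659, 27700 and 36804 with BML-260, so that vehicle 3 was the highest there as well. Their part in the result was not tested.

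Of 8 genes of regenerating or denervated fibers 6 were tested and 4 fell, with a median of -1.50, whereas without vehicle 3 there were 5 calls and a median of -1.22. With all libraries, 1 of the 6, Myh8, had a positive log2 fold change. The summed normalized counts of the list overlapped between the groups, at 19894, 32772 and 21240 with vehicle and 22774, 22989 and 29625 with BML-260. Myh3, the embryonic myosin heavy chain, had 677, 1374 and 2114 normalized counts with vehicle and 575, 246 and 497 with BML-260, and Myog, a transcription factor of myoblast differentiation, had 331, 463 and 1323 with vehicle and 136, 159 and 271 with BML-260. Without vehicle 3 their log2 fold changes went from -1.66 to -1.22 and from -1.91 to -1.08. Vehicle 3 was the highest library for Myh3 and Myog, but for 2 genes only of this list, and the relation of the list to the myeloid genes was not tested. Platelet genes fell in 2 of the 5 tested, Itga2b and Ppbp, of which Ppbp was not highest in vehicle 3 (67.7, 139 and 70.3 normalized counts with vehicle, 44.1, 33.0 and 56.2 with BML-260). Without vehicle 3 the log2 fold change of Itga2b went from -1.26 to -1.12 and that of Ppbp from -1.05 to -1.21. The median of the platelet list was -0.68, or -0.80 without vehicle 3 with 2 calls. Of the 6 lymphatic endothelium genes, which share Lyve1 with resident macrophages, 0 passed the threshold, and their summed normalized counts were 891, 841 and 2149 with vehicle and 911, 1273 and 815 with BML-260. Vehicle 3 was the highest there too.

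For blood endothelium, muscle fiber, mast cell, B cell and T and NK cell lists, 0 tested genes passed in either direction, and the medians were between 0.00065 and 0.67 with all libraries. Only Cd247 of the 10 T and NK cell genes and 3 of the 7 B cell genes were tested, so these lists say little about lymphocytes. Fibroblast genes had a median of -0.15, with 1 of 8 passing, Col1a1 (log2 fold change -0.43, SE 0.18), which lost its call without vehicle 3, at -0.31. The plot of list medians shows the neutrophil list furthest below 0, with the regenerating fiber, monocyte and erythroid lists near the medians of the myeloid subgroups.

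**Figure D5:**
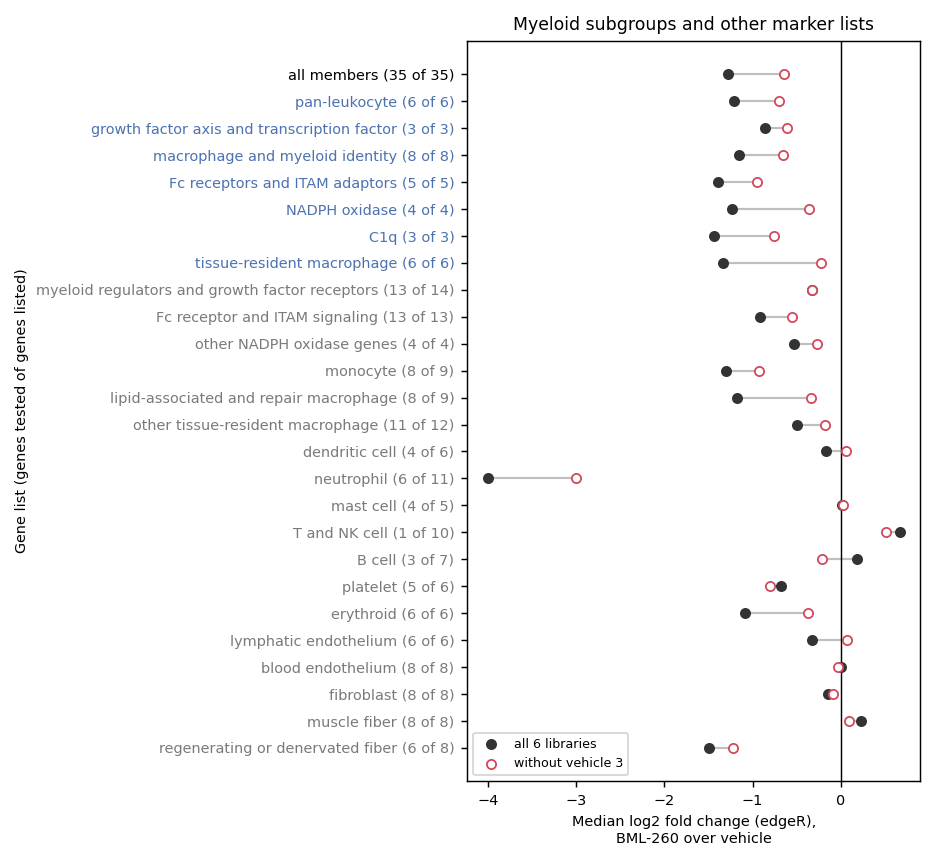
Median log2 fold change of BML-260 over vehicle (edgeR) for the 35 myeloid genes (black), their subgroups (blue) and other marker lists (gray), with the genes tested of those listed in parentheses. Filled points use all 6 libraries and open points leave out vehicle 3; the resident macrophage subgroup moves from -1.33 to -0.22 and the Fc receptor subgroup from -1.39 to -0.95.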

How the data were processed

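RNA-Seq of TA muscle was carried out by the authors on 3 vehicle and 3 BML-260 libraries, made with a stranded total RNA kit. Per the submitters' processing notes and the study's methods, reads were trimmed with Trimmomatic 0.38, Bowtie2 (version 2.3.4.1) and HISAT2 (version 2.1.0) are named for mapping, StringTie 2.1.3b for assembly, and mm10 as the build. The annotation and the strand setting of counting are not given in the sources used here. The authors deposited raw counts per gene for all libraries in 1 table, and TPM values, scaled for length and library total, for each library.

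Symbols came from the TPM tables. The count model was edgeR 4.0.16 under R 4.3.3 (filterByExpr, TMM, quasi-likelihood test, Benjamini-Hochberg adjustment over 16188 tested genes, which held 99.9% of counts). The standard error was derived from the log2 fold change and its F statistic. Normalized counts were divided by DESeq2 1.42.0 size factors. As alternatives, the libraries were scaled by upper quartile or RLE factors, the filter was dropped or set to 10 counts in each library, the replicate number was used as a block, each library was left out, and DESeq2's Wald test, limma 3.58.1 voom with quality weights, and limma trend on log2(TPM + 1) or log2(TPM + 0.1) were run. The tests were tested on simulated data.

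All 35 members are named, and of the 18 other lists (150 genes) at most the 2 genes with the smallest p are given values, and some of these are not reported here. Genes whose counts or filter result alone are mentioned follow the same lists, except overlapping and related genes, which were chosen after values were seen. The members and the lists were chosen with earlier results of these data known, so no p is given over a list. The p-values measure only the spread between these 6 libraries. Promoter sequences are from RefSeq (GRCm38.p6). Figures were drawn with matplotlib 3.10.9.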

Additional observations from a re-analysis of the deposited data

How the results depend on the processing

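Of the 35 genes, 18 kept the call of lower expression whichever library was left out, and 13 did so under all 15 alternatives: Ptprc, Laptm5, Cd52, Csf1r, Spi1, Adgre1, Mpeg1, Fcer1g, Tyrobp, Fcgr2b, Cybb, C1qb and C1qc. The share of all tested genes that kept a call in these ways was not computed, so both counts stand without a comparison. Leaving out 1 library in turn, 18 (without BML-260 2) to 29 (without vehicle 2) genes were called lower and 0 were called higher. Over all tested genes, 503 of 16767 and 1207 of 16719 passed in either direction in these fits. By edgeR 0 of the 35 had an adjusted p under 0.05, and the median log2 fold change was -1.53 to -0.64 (-0.64 without vehicle 3). Groups without overlap were found for 26 to 30 genes. The share of tested genes separated downward was 6.7% with every library and 9.3% without vehicle 3, and is not given for the other fits. Without BML-260 2, 18 genes were called, and the calls of Cd53, Lyz2, Ms4a7, Cd14, Ncf1, C1qa, Cd163 and F13a1 were lost; without BML-260 1 those of Ms4a7, Cd14, Ncf1 and Cd163, without BML-260 3 those of Cd53, Cd14, Ncf1, Cd163 and F13a1, and without vehicle 1 that of Ms4a7. Calls were gained by Lyve1 and Pf4 without vehicle 1, by these and Ncf4 without vehicle 2, and by Pf4 without BML-260 1. The log2 fold change of Cd68 (0.00) was -0.019 with upper quartile normalization, -0.0059 with no filter and -0.0047 with at least 10 counts in every library, and ranged from -0.40 to 0.39 over the libraries left out. That of Lyve1 ranged from -2.77 to 0.37. With DESeq2, 5 genes had an adjusted p under 0.05, where edgeR had 0. Limma on log2(TPM + 1) called 16 genes lower instead of 26, and 22 with a pseudocount of 0.1. Over all 16800 genes, 446 and 692 passed in either direction in these fits. A pseudocount of 1 understates the change of low genes. The calls lost with it included that of Lyz2, the most abundant gene, which was kept with a pseudocount of 0.1. The median of all genes was -0.09 and -0.14 on these TPM scales. Limma voom with quality weights called 20, and 890 of 16188 tested genes passed in either direction. The cause of the differences between settings was not tested.

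The labels number the replicates 1 to 3 in both groups. Deviations of libraries with the same number correlated at 0.162, 0.0541 and 0.110, each the highest for its number, which is a hint from the data and not a pairing by design. With a replicate block, 23 genes were called lower with a median log2 fold change of -1.09; Cd14, Ncf1, Cd163 and F13a1 lost the call and Csf1 gained it. Over all tested genes, 931 of 16188 passed the threshold in either direction with every library. The count was 657 of 16502 without vehicle 3, 2223 of 16719 without vehicle 1 and 503 of 16767 without BML-260 2. It was 1057 of 16188 with the replicate block, 1416 of 25780 with no filter and 446 of 16800 on log2(TPM + 1). Precision was limited by 3 libraries a group, with vehicle 3 apart, and for Fcgr1, Ms4a7, Ncf4 and Aif1 also by low counts.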
